A study of Mus musculus with 9 samples.

Results

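Krueppel-like factors are transcription factors that bind GC-rich and CACCC-containing DNA through a run of zinc fingers at the end of the protein. Members that recruit Sin3 repressor complexes (Klf9, Klf10, Klf13 and Klf16) or CtBP corepressors (Klf3) mostly lower transcription, while Klf2, Klf4, Klf6 and Klf7 more often raise it. In neurons the family is known for its hold on axon growth, which Klf6 and Klf7 promote and Klf4 and Klf9 restrain, and several members are induced quickly by hormones, growth factors or activity.

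The genes described here are 10 Krueppel-like factors, Klf2, Klf3, Klf4, Klf6, Klf7, Klf9, Klf10, Klf13, Klf15 and Klf16, found by their symbols among the 55335 rows of the deposited table. All 10 passed the filter on low counts, which kept 21765 genes. They were chosen by symbol, as Klf10 and its relatives, with earlier results of these libraries in view, and which comparison led to Klf10 is not stated. Both comparisons that include the injured saline libraries may have done so. Levels of the 10 genes in injured saline against sham mice are therefore given as a description, and p-values of R-HNK against injured saline mice are not independent of the choice. The RNA came from the prelimbic part of the medial prefrontal cortex, taken from 9 mice on day 14 after surgery. Of these, 3 had spared nerve injury (SNI), a neuropathic pain model in which part of the sciatic nerve is cut, and were given R-HNK, the ketamine metabolite (2R,6R)-hydroxynorketamine, at 10 mg/kg (R-HNK mice). Another 3 had the same injury and received saline (injured saline mice), and 3 had a sham operation and saline (sham mice). Strain, sex, age and the time from dosing to tissue collection are not given in the sources used here.

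Depth was 53624337 to 73586375 counts per library, and levels are in CPM (counts per 1000000 of the library total, scaled by TMM). The 10 excitatory cortical neuron markers were all present, with summed levels of 2526 to 2702 CPM in R-HNK mice, 2916 to 2992 CPM in injured saline mice and 2171 to 2769 CPM in sham mice. Markers of striatal medium spiny neurons, cells from outside the cortex, were raised in 4 libraries, R-HNK replicates 1 and 3 and sham replicates 2 and 3. Their summed levels ran from 292 to 1030 CPM in R-HNK mice, 264 to 305 CPM in injured saline mice and 305 to 1645 CPM in sham mice, and 12 of the 15 markers were above 0 in all 9 libraries. For the 10 genes, values without these 4 libraries are given below where they end a call. They are also given where they move a printed log2 fold change by more than 1.5 times. In bulk tissue, fewer cells of a type and less RNA per cell cannot be told apart.

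Klf10, first described as an early gene induced by TGF-beta, encodes a Sin3-recruiting repressor. It measured 26.1, 34.4 and 27.4 CPM in R-HNK mice, 52.3, 65.5 and 80.7 CPM in injured saline mice, and 25.5, 19.1 and 21.8 CPM in sham mice. The injured saline libraries were thus the highest of the 9, and each R-HNK library lay above every sham library, the nearest pair being 26.1 and 25.5 CPM. The gene lies on chromosome 15 from 38291463 to 38300706 on the minus strand (GENCODE M21 on GRCm38, the assembly also called mm10), and no other annotated gene shares its exons. Its counts ran from 1097 to 5191 per library. Of the 10 genes it had the widest range over the 9 libraries, with the highest level 4.23 times the lowest. The median of that ratio over all tested genes was 1.62.

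Klf10 RNA fell in R-HNK mice relative to injured saline mice. The means were 29.3 ± 4.49 CPM in R-HNK mice and 66.2 ± 14.2 CPM in injured saline mice (SD, n = 3 each), a log2 fold change of -1.18 ± 0.17 (SE, 95% interval -1.55 to -0.80, edgeR adjusted p = 0.0345). All 3 R-HNK libraries were below all 3 injured saline libraries. The call was lost without a filter on low counts (adjusted p = 0.0601) and with replicate number as a block (0.142). Leaving out 1 mouse lost the call for R-HNK replicates 1 (adjusted p = 0.224) and 3 (0.228), injured saline replicates 2 (0.188) and 3 (0.0681) and sham replicate 3 (0.0578). Over all settings the adjusted p ran from 3.22e-10 to 0.63, and the log2 fold change from -1.33 to -0.95. A fit with the striatal score as a covariate gave -1.01 (adjusted p = 0.0182). Dropping the 4 libraries with raised striatal markers gave -0.95 (adjusted p = 0.63). That fit leaves 1 R-HNK and 1 sham library, which are assumed to vary like the 3 injured saline libraries. Summed excitatory neuron markers, given above, were lower in R-HNK than in injured saline mice without overlap. Summed levels of 10 choroid plexus and ependyma markers were higher, at 11.5 to 16.9 CPM in R-HNK mice and 9.60 to 10.2 CPM in injured saline mice. Only 5 of these 10 were above 0 in all libraries. Of the 9 tested, 7 had a positive log2 fold change, while Foxj1 was lower, at 4.22 CPM in R-HNK mice and 4.48 CPM in injured saline mice. For 10 blood cell markers the sums were also higher, at 549 to 726 CPM in R-HNK mice and 288 to 405 CPM in injured saline mice. The part of these cell types in the Klf10 result was not tested.

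Between injured saline and sham mice, Klf10 averaged 66.2 ± 14.2 CPM in injured saline mice and 22.1 ± 3.21 CPM in sham mice (SD, n = 3 each), a log2 fold change of 1.58 ± 0.17 (SE). Without the 4 libraries with raised striatal markers it was 1.38, in a fit that leaves 1 sham library. R-HNK and sham mice differed less, at 29.3 ± 4.49 CPM in R-HNK mice and 22.1 ± 3.21 CPM in sham mice. That log2 fold change was 0.40 ± 0.17 (95% interval 0.03 to 0.78) and did not pass (edgeR adjusted p = 1).

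**Figure D1:**
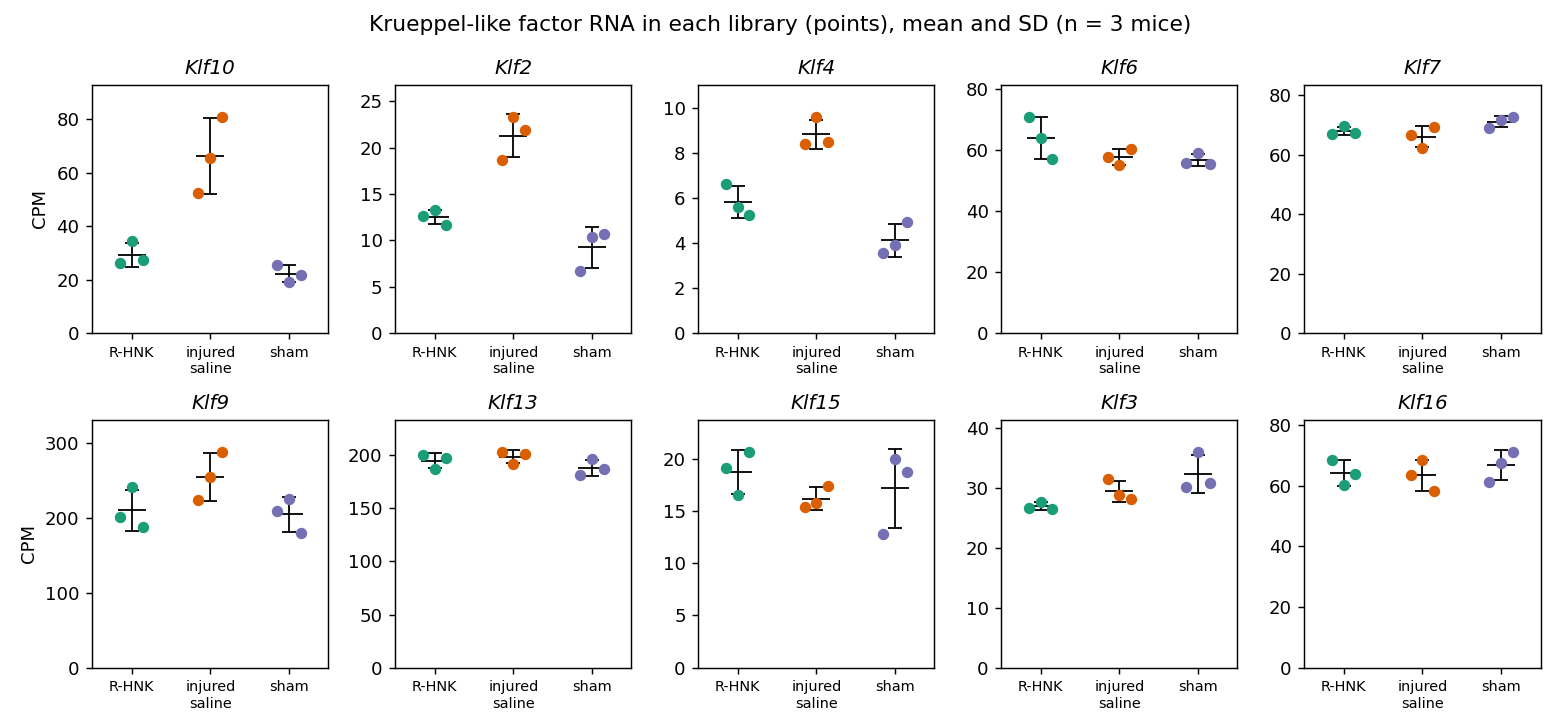
Levels of the 10 Krueppel-like factors in CPM on axes that start at 0, with 1 point per library and the mean and SD over 3 mice for R-HNK, injured saline and sham mice. Klf10, Klf2 and Klf4 are highest in all 3 injured saline libraries, while Klf13 stays between 181 and 203 CPM in all 9.

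Klf2 and Klf4 are best known from vascular endothelium, where blood flow induces both through the kinases MEK5 and ERK5 and MEF2 transcription factors. Klf4 is also a reprogramming factor of pluripotent cells, and Klf2 keeps T cells quiescent. The stretches upstream of their start sites are shown because the levels of these 2 genes ran most closely together of all pairs among the 10. They run from base -250 to base -51 before the start site, 5′ to 3′ on the gene's strand (RefSeq, GRCm38.p6; Klf2 at chr8:72318812-72319011 on the plus strand, Klf4 at chr4:55532526-55532725 on the minus strand). Capitals mark matches, on either strand, to TGACG (the cAMP response half-site), to GCGNGGGCG (the Egr motif) and to the MEF2 motif. The Klf2 window holds 1 match to each, and the Klf4 window 1 TGACG and 2 Egr matches.
Klf2: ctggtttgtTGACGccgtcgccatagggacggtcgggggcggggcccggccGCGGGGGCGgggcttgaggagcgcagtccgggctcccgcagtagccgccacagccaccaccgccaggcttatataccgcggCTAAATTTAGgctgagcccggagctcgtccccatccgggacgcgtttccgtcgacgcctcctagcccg
Klf4: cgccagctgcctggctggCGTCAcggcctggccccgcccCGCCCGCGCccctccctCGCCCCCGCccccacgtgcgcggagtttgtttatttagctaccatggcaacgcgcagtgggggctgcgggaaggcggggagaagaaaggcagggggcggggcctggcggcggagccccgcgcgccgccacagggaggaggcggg

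Windows of 300 bases, which reach from 250 bases before to 50 after a start site, were found for 8 of the 10 genes, all but Klf10 and Klf16. Of these 8, 6 held TGACG, 4 the Egr motif, 1 the AP-1 motif TGANTCA and 1 the MEF2 motif, and none held TGACGTCA, the SRF motif (CArG box) or the palindromic glucocorticoid element. In all 32851 windows of that length the shares were 20.8% for TGACG, 5.55% for the Egr motif, 7.81% for AP-1, 1.86% for MEF2, 1.79% for TGACGTCA, 1.63% for the SRF motif and 0.00913% for the glucocorticoid element. The 7 letters of TGANTCA do not include TGACG, while each TGACGTCA also counts as a TGACG. The Klf2 and Klf4 windows were GC-rich, at 69.3% and 74.3% of bases, against a median of 52.7% over all windows. Among the 5704 windows with 65% to 80% GC, 19.9% held the Egr motif, 32.7% TGACG and 0.456% the MEF2 motif. A match describes the letters and does not show binding.

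Klf2 measured 12.6, 13.3 and 11.7 CPM in R-HNK mice, 18.7, 23.3 and 21.9 CPM in injured saline mice, and 6.68, 10.4 and 10.7 CPM in sham mice. The groups did not overlap in any pairing, with R-HNK mice between injured saline and sham mice. The log2 fold change of R-HNK against injured saline mice was -0.77 ± 0.16 (95% interval -1.11 to -0.42) and did not pass (edgeR adjusted p = 0.176). It passed without sham replicate 1 (0.0119), in DESeq2 (0.00191) and limma (0.0138), with the 2 groups alone (0.0188) and with the striatal score in the fit (0.0438). The highest adjusted p among the settings was 0.642. Against sham mice the log2 fold change of R-HNK mice was 0.44 ± 0.16 (95% interval 0.09 to 0.78, edgeR adjusted p = 1). It was 0.99 once the 4 libraries with raised striatal markers were dropped, where the 1 sham library left, replicate 1, had the lowest Klf2 level of the 9. Injured saline mice averaged 21.3 ± 2.34 CPM and sham mice 9.25 ± 2.23 CPM (SD, n = 3 each), a log2 fold change of 1.20 ± 0.16 (SE).

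Klf4 had the lowest counts of the 10, from 207 to 576 per library. It measured 6.62, 5.59 and 5.26 CPM in R-HNK mice, 8.40, 9.60 and 8.50 CPM in injured saline mice, and 3.54, 3.90 and 4.95 CPM in sham mice. As with Klf2, the R-HNK libraries lay between those of the other 2 groups without overlap. Against injured saline mice the log2 fold change of R-HNK mice was -0.60 ± 0.16 (95% interval -0.95 to -0.25, edgeR adjusted p = 0.359), and against sham mice 0.50 ± 0.17 (0.14 to 0.86, adjusted p = 1), neither of which passed. Injured saline mice averaged 8.83 ± 0.664 CPM and sham mice 4.13 ± 0.732 CPM (SD, n = 3 each), a log2 fold change of 1.10 ± 0.17.

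The summed levels of 10 endothelial markers overlapped between the groups, at 268 to 297 CPM in R-HNK mice, 262 to 279 CPM in injured saline mice and 231 to 320 CPM in sham mice. Summed levels of 10 blood cell markers were 549 to 726 CPM in R-HNK mice, 288 to 405 CPM in injured saline mice and 360 to 545 CPM in sham mice. Summed blood markers were thus lower in injured saline than in R-HNK mice without overlap, and overlapped between injured saline and sham mice. The highest of them, the globin gene Hba-a1, measured 205 CPM in R-HNK mice and 103 CPM in injured saline mice. Of the 9 blood markers tested, 8 had a positive log2 fold change in R-HNK against injured saline mice. Ptprc, a white blood cell gene, was lower, at 2.91 CPM in R-HNK mice and 3.42 CPM in injured saline mice. The part of blood cells in the levels of Klf2 and Klf4 was not tested. The other genes of the ERK5 and MEF2 route, 9 of 10 tested, gave no call between R-HNK and injured saline mice in edgeR, DESeq2 or limma, and 1 had an unadjusted p under 0.05. That gene was Mapk7, which encodes ERK5 (0.22 ± 0.08, adjusted p = 0.613), and next by p came the transcription factor gene Mef2d (-0.06 ± 0.07, adjusted p = 0.853).

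Klf6 and Klf7, which promote axon growth, differed little between groups. Klf6 measured 70.7, 63.9 and 57.0 CPM in R-HNK mice, 57.7, 55.0 and 60.3 CPM in injured saline mice, and 55.7, 58.9 and 55.3 CPM in sham mice. R-HNK replicates 1 and 2 were the highest of the 9 libraries, while replicate 3 lay among the others. The log2 fold changes of R-HNK mice were 0.15 ± 0.08 against injured saline mice (95% interval -0.03 to 0.32, edgeR adjusted p = 0.702) and 0.17 ± 0.08 against sham mice (-0.00 to 0.35, adjusted p = 1).

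Klf7 stayed within 67.0 to 69.6 CPM in R-HNK mice, 62.3 to 69.3 CPM in injured saline mice and 69.0 to 72.6 CPM in sham mice, and all 3 ranges overlapped. Its log2 fold change between R-HNK and injured saline mice was 0.04 ± 0.07 (95% interval -0.10 to 0.18), and 0.07 without the 4 libraries. Of its merged exon bases, 39.3% also lie in a long non-coding RNA gene on the opposite strand, and without a stated strand setting reads of the pair cannot be told apart.

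Klf9, a Sin3-recruiting factor induced by glucocorticoids and thyroid hormone, measured 201, 241 and 187 CPM in R-HNK mice, 224, 254 and 288 CPM in injured saline mice, and 209, 226 and 180 CPM in sham mice. Injured saline replicates 2 and 3 stood above all other libraries, while replicate 1 lay within the ranges of both other groups. The log2 fold change of R-HNK against injured saline mice was -0.28 ± 0.12 (95% interval -0.54 to -0.03) and did not pass (edgeR adjusted p = 0.626). It was -0.09 without the 4 libraries raised in striatal markers (adjusted p = 1), which leaves 1 R-HNK library. Against sham mice it was 0.04 ± 0.12 (-0.22 to 0.29, adjusted p = 1), and 0.21 without them. Injured saline mice averaged 255 ± 32.0 CPM and sham mice 205 ± 23.3 CPM (SD, n = 3 each), a log2 fold change of 0.32 ± 0.12.

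Klf13 and Klf16 are Sin3-recruiting relatives of Klf9. Klf13 averaged 194 ± 7.03 CPM in R-HNK mice, 198 ± 6.31 CPM in injured saline mice and 188 ± 7.55 CPM in sham mice (SD, n = 3 each), and the groups overlapped. It had the narrowest range of the 10, with its highest level 1.12 times its lowest, and its log2 fold change of R-HNK against injured saline mice was -0.03 ± 0.06 (95% interval -0.16 to 0.11), and -0.09 without the 4 libraries. Klf16, first described as a regulator of dopamine receptor genes, measured 68.5, 60.2 and 63.7 CPM in R-HNK mice, 63.4, 68.5 and 58.4 CPM in injured saline mice, and 61.3, 67.6 and 71.1 CPM in sham mice. The groups overlapped, and R-HNK against injured saline mice gave 0.02 ± 0.08 (95% interval -0.16 to 0.20), and -0.08 without the 4 libraries.

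Klf15, a glucocorticoid-induced regulator of amino acid and glucose metabolism, measured 19.1, 16.5 and 20.6 CPM in R-HNK mice, 15.3, 15.7 and 17.4 CPM in injured saline mice, and 12.8, 19.9 and 18.7 CPM in sham mice. The groups overlapped. The 4 libraries with raised striatal markers held 18.7 to 20.6 CPM, above the 12.8 to 17.4 CPM of the other 5. Summed levels of 10 oligodendrocyte markers split the same way, at 5147 to 7163 CPM in those 4 and 3416 to 4847 CPM in the other 5. So did endothelial markers (295 to 320 and 231 to 279 CPM). Mural (vessel wall) markers did as well (211 to 232 and 184 to 195 CPM), and choroid plexus and ependyma markers (14.3 to 28.2 and 9.60 to 13.9 CPM). Excitatory neuron markers split the other way (2171 to 2690 and 2702 to 2992 CPM). The 4 libraries were set apart by measured levels and not by the study's groups, so no test was made. The part of any of these cell types in the Klf15 level was not tested. The log2 fold change of R-HNK against injured saline mice was 0.21 ± 0.15 (95% interval -0.11 to 0.54, edgeR adjusted p = 0.762). It was 0.02 without those 4 libraries and -0.03 with the striatal score in the fit. Between injured saline and sham mice it was -0.09 ± 0.15, and 0.34 without the 4 libraries.

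Klf3, a repressor that works through CtBP, measured 26.7, 27.7 and 26.4 CPM in R-HNK mice, 31.4, 28.8 and 28.1 CPM in injured saline mice, and 30.2, 36.0 and 30.8 CPM in sham mice. All 3 R-HNK libraries lay below the other 6, the nearest pair being 27.7 and 28.1 CPM. The log2 fold change of R-HNK mice was -0.13 ± 0.09 against injured saline mice (95% interval -0.32 to 0.06, edgeR adjusted p = 0.757) and -0.26 ± 0.09 against sham mice (-0.45 to -0.07, adjusted p = 1), so neither passed. Without the 4 libraries the value against sham mice was -0.12. Of its merged exon bases, 3.59% are shared with Gm20033, a transcript on the opposite strand.

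**Figure D2:**
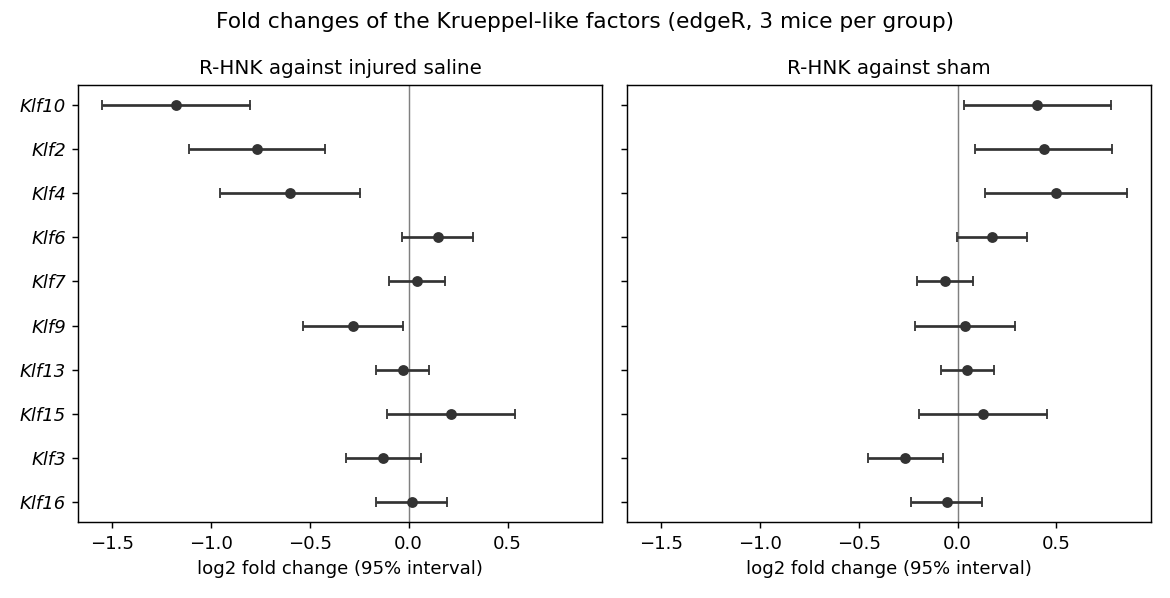
Log2 fold changes with 95% intervals of the 10 Krueppel-like factors for R-HNK against injured saline mice (left) and R-HNK against sham mice (right), from edgeR with 3 mice per group. On the left the intervals of Klf10, Klf2, Klf4 and Klf9 lie below 0, and on the right those of Klf10, Klf2 and Klf4 lie above 0 and that of Klf3 below it, although after adjustment over all genes only Klf10 on the left passed.

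Counted over the family, R-HNK against injured saline mice gave 1 call among the 10, Klf10, which was lower, where 0.119% of all tested genes were called and 0.0827% were called lower. Of the 10, 4 had R-HNK libraries all below the injured saline libraries (Klf2, Klf3, Klf4 and Klf10) and none all above, where 6.59% of tested genes lay all below and 7.15% all above. An unadjusted p under 0.05 was found for 4 members, Klf2, Klf4, Klf9 and Klf10, and for 7.47% of tested genes. The family's median log2 fold change was -0.08, and that of all tested genes 0.01. R-HNK against sham mice gave no call in edgeR, DESeq2 or limma, where edgeR called 0.00459% of tested genes. In that comparison 4 members, Klf2, Klf3, Klf4 and Klf10, had an unadjusted p under 0.05, as did 3.53% of tested genes. R-HNK libraries lay all above sham libraries for 3 members (Klf2, Klf4 and Klf10; 4.43% of tested genes) and all below for 1 (Klf3; 4.42%), and the family's median was 0.09 (-0.01 over all tested genes). The comparisons share groups of libraries, so they are not independent of each other. The members were chosen with earlier results of these libraries in view. Their counts beside the shares of all tested genes are therefore descriptions.

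Per kilobase of merged exons, which allows levels of different genes to be compared, Klf9 was the highest of the 10 in every group. It stood at 43.6 ± 5.80 CPM per kilobase in R-HNK mice, 53.0 ± 6.65 in injured saline mice and 42.5 ± 4.84 in sham mice (SD, n = 3 each). Klf13 and Klf16 came next and overlapped each other in each group, at 25.8 and 24.0 CPM per kilobase in R-HNK mice, 26.3 and 23.7 in injured saline mice and 25.0 and 24.9 in sham mice. Below these, Klf10 took the sixth place in R-HNK mice at 7.01 ± 1.07 CPM per kilobase, the fourth in injured saline mice at 15.8 ± 3.40 and the seventh in sham mice at 5.30 ± 0.769. In injured saline mice its range overlapped those of Klf6 (13.1 ± 0.604 CPM per kilobase) and Klf2 (11.5 ± 1.27). In R-HNK mice it overlapped those of Klf2, next below it (6.78 ± 0.436), and Klf15 (6.72 ± 0.748). In sham mice it overlapped those of Klf15 above it (6.15 ± 1.36) and Klf2 below it (5.01 ± 1.21). Klf3 and Klf4 were the lowest in each group, with means between 1.35 and 2.90 CPM per kilobase. Klf4 stood below Klf3 without overlap in R-HNK and in sham mice, and overlapped it in injured saline mice. These figures take all annotated exons as expressed, so a gene with long rarely used exons would read low. Exon use was not measured, including that of Klf3, whose merged exons span 11.2 kilobases.

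**Figure D3:**
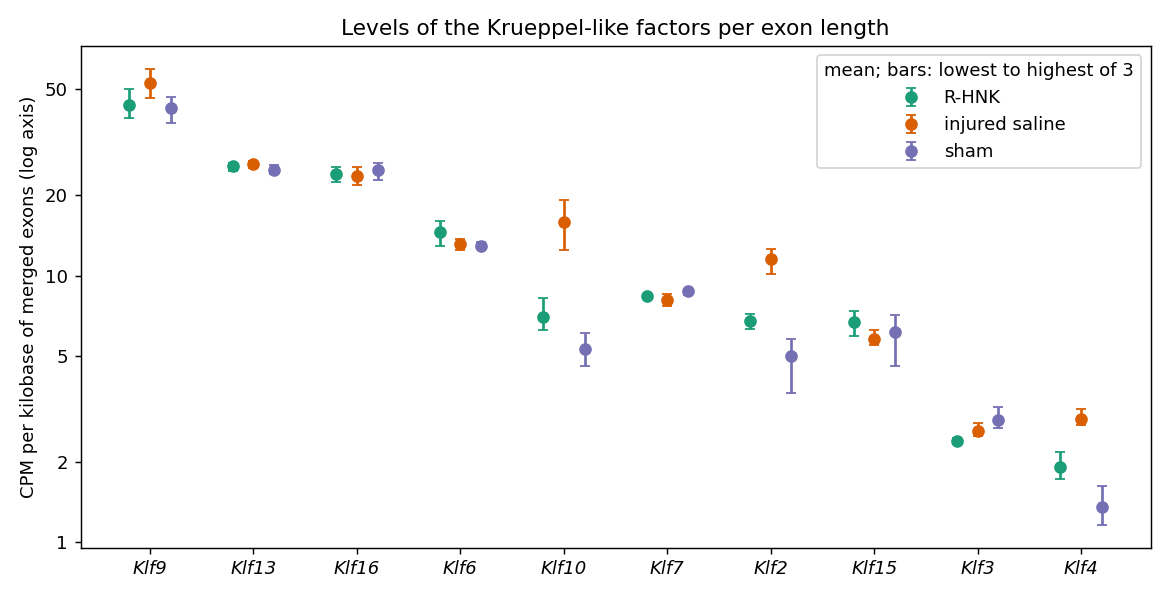
Levels of the 10 genes in CPM per kilobase of merged exons on a log axis, ordered by their mean over 9 libraries, with the group mean as a point and bars from the lowest to the highest of 3 mice for R-HNK, injured saline and sham mice. Klf10, Klf2 and Klf4 show injured saline points apart from the other 2 groups.

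Over the 9 libraries, the log2 CPM of Klf2 and Klf4 ran together most closely of the 45 pairs of members, with a Pearson r of 0.957. Klf2 and Klf10 had r = 0.871, Klf4 and Klf10 0.866, and Klf9 and Klf10 0.789. The 9 libraries include the group differences already given, and these values are descriptions over shared libraries. After each group's mean was taken out, the same 4 pairs had r = 0.668 for Klf2 and Klf4, -0.101 for Klf2 and Klf10, -0.206 for Klf4 and Klf10, and 0.620 for Klf9 and Klf10. The highest of the 45 pairs was then Klf4 and Klf16 at 0.795.

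The 10 genes whose log2 CPM over the 9 libraries was most like that of Klf10 were, from r = 0.987 down to 0.965, Pvr, Dusp6, Midn, Egr1, Uap1, Tent4a, Gadd45a, Slc35f6, Nab2 and Hmga1, out of 13329 genes compared. Dusp6 encodes a phosphatase that switches off ERK, Egr1 an activity-induced transcription factor, Nab2 a corepressor of Egr proteins, and Gadd45a a stress-induced protein. Dusp6 measured 63.3, 67.3 and 65.5 CPM in R-HNK mice, 107, 113 and 120 CPM in injured saline mice, and 59.4, 46.3 and 54.5 CPM in sham mice. Gadd45a measured 7.97, 7.17 and 7.79 CPM in R-HNK mice, 13.6, 18.0 and 19.0 CPM in injured saline mice, and 6.73, 5.87 and 5.55 CPM in sham mice. Both were highest in the 3 injured saline libraries, as Klf10 was. They were picked for likeness to Klf10 over these same libraries, so this is not a separate result. Klf2 itself was most like Egr2 (r = 0.96), Klf4 (0.957) and Zswim4 (0.955). Klf4 was most like Vps37b (0.97), Ackr3 (0.968) and Grpel2 (0.964), and Klf9 most like Mapk8 (0.985), Senp2 (0.981) and Naa15 (0.979).

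The nearest genes to the others were less close for some. They were Rnf113a2, Tmem161b and Aebp2 for Klf3 (r = 0.956 to 0.869), Mrpl51, Gid8 and Zfp937 for Klf6 (0.879 to 0.872), and Cyfip1, Sycp2 and Tunar for Klf7 (0.962 to 0.946). For Klf13 they were Sla, Spop and Cmklr1 (0.895 to 0.879), for Klf15 BC055324, Neil1 and Pth1r (0.96 to 0.956), and for Klf16 Sh3bp2, Amdhd2 and Fars2 (0.965 to 0.919).

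**Figure D4:**
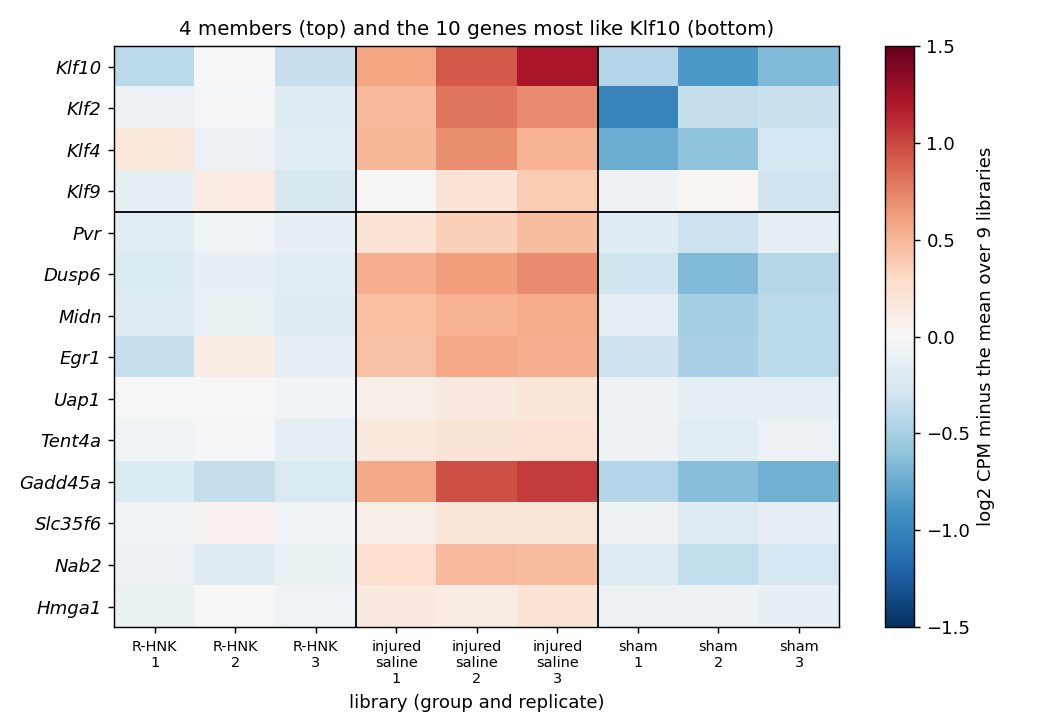
Log2 CPM minus the gene's mean over the 9 libraries, as colour from -1.5 (blue) to 1.5 (red), for Klf10, Klf2, Klf4 and Klf9 above the line and the 10 genes most like Klf10 below it, with R-HNK, injured saline and sham libraries from left to right. Every gene shown reaches its highest level in an injured saline library, and Klf10 spans the widest range of colour. The 10 lower genes were picked for likeness to Klf10 over these same libraries.

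The other Krueppel-like genes in the table were Klf1, Klf5, Klf8, Klf11, Klf12, Klf14 and Klf17, of which Klf17 had 0 counts in all libraries and 6 were tested. None was called between R-HNK and injured saline mice by edgeR, DESeq2 or limma, and 1 had an unadjusted p under 0.05. That was Klf11, the closest relative of Klf10, at 8.91 CPM in R-HNK mice and 6.68 CPM in injured saline mice (0.42 ± 0.16, edgeR adjusted p = 0.606). Klf8 was next by p (0.26 ± 0.20, adjusted p = 0.787). The median log2 fold change of the 6 was 0.19, and that of the 10 was -0.08. Among the 6, Klf1 had 0 to 18 counts per library and Klf14 had 11 to 31, with SE of 1.09 and 0.54.

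Of 8 tested genes of the related SP family, Sp9, a factor of developing interneurons and striatal neurons, rose in R-HNK mice, to 15.9 CPM against 7.11 CPM in injured saline mice (1.16 ± 0.14, edgeR adjusted p = 0.00622). Sp8, which acts in the same cells, measured 9.03 CPM in R-HNK mice and 3.30 CPM in injured saline mice and did not pass (1.45 ± 0.31, adjusted p = 0.249). The SP median was 0.60, but Sp1 to Sp4 gave 0.22, 0.20, -0.05 and 0.23. Sp5, with 4 to 57 counts per library, gave 1.74 ± 0.80, and Sp7, with 49 to 278, gave 0.98 ± 0.47. Sp8 and Sp9 passed as lower in injured saline mice than in sham mice, which averaged 19.1 CPM of Sp9 and 13.3 CPM of Sp8. Sp9 measured 14.7, 18.1 and 14.8 CPM in R-HNK mice, 6.17, 7.46 and 7.69 CPM in injured saline mice, and 16.0, 20.1 and 21.3 CPM in sham mice. R-HNK replicate 2, without raised striatal markers, had the highest Sp9 of its group, and also the highest Sp8 (12.6 CPM). Sham replicate 1, also without raised striatal markers, had the lowest Sp9 of its group, and also the lowest Sp8 (13.0 CPM). Without the 4 libraries Sp9 gave 1.34 (adjusted p = 0.00677) and Sp8 1.92 (adjusted p = 0.231). Of 10 interneuron markers, 6 had a positive log2 fold change in R-HNK against injured saline mice. Only Dlx1, a transcription factor gene of inhibitory neurons, was called (0.55, adjusted p = 0.0209). It measured 62.8, 72.0 and 60.9 CPM in R-HNK mice and 48.7, 42.9 and 41.9 CPM in injured saline mice. Pvalb went the other way, at 26.6 CPM in R-HNK mice and 38.7 CPM in injured saline mice. Summed levels of the 10 markers overlapped, at 902.6 to 1024.5 CPM in R-HNK mice and 882.6 to 922.7 CPM in injured saline mice. The part of interneurons in the Sp8 and Sp9 levels was not tested.

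Of 15 cofactor genes (Sin3, histone deacetylase, CtBP, acetyltransferase and ubiquitin ligase genes) none was called between R-HNK and injured saline mice in edgeR, DESeq2 or limma, and none had an unadjusted p under 0.05. The smallest p were those of Ctbp2 (0.23 ± 0.12) and Hdac1 (0.15 ± 0.10), with adjusted p = 0.698 and 0.738. Of 20 genes of TGF-beta signalling, the route first described as inducing Klf10, none was called by any of these tools. An unadjusted p under 0.05 was found for 3 of them and for 7.47% of all tested genes. Smad7, an inhibitor of the pathway, gave -0.27 ± 0.09 (adjusted p = 0.506) and Skil, a SMAD corepressor, -0.25 ± 0.09 (adjusted p = 0.571). The medians of these lists were -0.01 and 0.06.

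Of 18 genes tied to glucocorticoid and thyroid hormone action, which induce Klf9 and in part Klf15, Per1 fell in R-HNK mice and 17 did not pass. Per1, a clock gene also induced by activity, measured 93.6 CPM in R-HNK mice and 145 CPM in injured saline mice (-0.63 ± 0.08, edgeR adjusted p = 0.00682). Tsc22d3, a classical glucocorticoid target, gave -0.40 ± 0.11 (adjusted p = 0.387), and the list's median was -0.15.

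Of 17 activity-induced immediate early genes, 4 fell in R-HNK mice relative to injured saline mice (Egr1, Egr4, Nr4a1 and Nr4a3) and 13 did not pass. Over all tested genes, 0.119% were called in that comparison and 0.0827% were called lower. The median of the 17 was -0.61. Nr4a3, an orphan nuclear receptor, gave -0.80 ± 0.11 (edgeR adjusted p = 0.0134), and Egr4, a relative of Egr1, -0.62 ± 0.08 (adjusted p = 0.0134). Without the 4 libraries Egr1 (-0.42, adjusted p = 0.246) and Egr4 (-0.56, adjusted p = 0.0696) no longer passed. Of the same 17, 11 passed as higher in injured saline than in sham mice (Fos, Fosb, Egr1, Egr2, Egr3, Egr4, Nr4a1, Nr4a3, Arc, Ier2 and Dusp1), where 1.07% of tested genes passed and 0.515% passed as higher. The list was chosen with results of these data known, and both comparisons use the injured saline libraries, so its directions are not independent evidence.

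None of the 7 lists of other genes described here had a call between R-HNK and sham mice in edgeR. In that fit, immediate early genes had 10 of 17 with an unadjusted p under 0.05 and the other lists 0 or 1 each. The share over all tested genes was 3.53%. Between the same groups DESeq2 called 10 genes over all, among them 2 immediate early genes and none of the other lists. From these lists limma called none.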

How the data were processed

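The table holds RNA-seq libraries of 9 mice, 3 per group, from prelimbic cortex. Per the submitters' processing notes, HISAT2 2.0.5 aligned reads to mm10 and featureCounts 1.5.0-p3 counted them, while the deposited table's own name points to StringTie. The authors deposited expected counts (estimated counts, here whole numbers) per gene symbol without normalization. Strand setting and annotation are not given in the sources used here. In the table, 107 symbols occurred more than once and were kept apart, none of them a gene named here.

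Genes were filtered with filterByExpr, scaled by TMM and fitted over all 9 libraries with 1 mean per group by the robust quasi-likelihood test of edgeR 4.0.16 in R 4.3.3, with Benjamini-Hochberg adjustment over 21765 genes and a threshold of 0.05. SE were worked back from the test statistic, and intervals are 95%. An exact permutation test of 3 mice against 3 cannot go below 0.1, so the tests rest on spread shared across genes. Alternatives used DESeq2 1.42.0 and limma 3.58.1 among others, and values of list genes without the 4 striatal-raised libraries were added after seeing the data. Exon lengths are from GENCODE M21, and upstream sequences from RefSeq. Members, lists and settings were chosen with earlier results of these data known. Named were all 10 members, the genes most correlated with each (10 for Klf10, 3 for the others, mean log2 CPM of at least 0, no predicted genes or pseudogenes), every called gene of a list and the 2 smallest p of each list between R-HNK and injured saline mice.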

Additional observations from a re-analysis of the deposited data

How the results depend on the processing

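Of 540 log2 fold changes of the 10 genes recomputed under 18 settings, none that was called changed sign, and in 18 the sign differed from that of the reported value with a call in neither. R-HNK against injured saline mice gave 1 call among the 10. It gave 0 without a filter on low counts (Klf10 adjusted p = 0.0601), 0 with replicate number as a block (0.142) and 0 when the 4 libraries with raised striatal markers were dropped (0.63). It gave 2, Klf2 and Klf10, with DESeq2, with limma-voom, with the 2 compared groups alone and with the striatal score as a covariate. Leaving out 1 library in turn gave 0 to 2. R-HNK against sham mice gave 0 throughout.

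Counts over all genes moved more. For injured saline against sham mice 233 genes passed, with 370 without a filter, 1137 in DESeq2, 1135 in limma-voom, 97 with the striatal score, 86 without the 4 libraries, and 60 to 1170 when 1 library was left out. For R-HNK against injured saline mice the 26 became 140 in DESeq2, 49 in limma-voom, 53 with the 2 groups alone, 16 with the replicate block, and 7 to 56 when 1 library was left out. For R-HNK against sham mice the 1 became 10 in DESeq2, 0 in limma-voom, 2 with the replicate block, 2 with the striatal score, 25 without the 4 libraries, and 1 to 11 when 1 library was left out. The cause was not tested.

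Deviations of same-numbered libraries of different groups had correlations of -0.104 to 0.0917 over 9 pairs. Those of differently numbered libraries ran from -0.163 to 0.175. The check gave no sign that the numbers pair the mice, but it cannot exclude a shared batch. Counts of the 10 genes were at least 207 per library, in Klf4, and counting error was not separated from the spread between mice.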
